A study of Mus musculus with 157 samples.

Results

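The kinetochore and centromere genes were a list of 39 symbols for the proteins that build the centromere and tie chromosomes to the spindle, and each row of the count table whose gene name equalled a symbol was taken. All 39 were found among the 19600 genes of the table. They held 486207 of the 156884501 counts in the ribosome fractions, or 0.3099%. The list was made by function, with no measured value in its rule, though it was chosen with earlier results of these data known.

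The mRNA came from splenic B cells of C57BL/6Babr mice of 8 to 12 weeks, purified with a B cell isolation kit and cultured with lipopolysaccharide (LPS), a bacterial mitogen that drives B cells into division. In the LPS group the cells had 48 h of LPS at 10 µg/ml. In the LPS+ET group they also had etoposide at 20 µM for 4 h, a topoisomerase II poison that breaks both strands of DNA. In the LPS+ET+KU group the cells had 47 h of LPS and then KU55933, an inhibitor of the damage kinase ATM, at 10 µM for 1 h ahead of the same etoposide. No group had the inhibitor without etoposide. All cells had cycloheximide, which holds ribosomes on mRNA, at 100 µg/ml for 3 min before lysis, and cytoplasmic extracts were spread over sucrose gradients. Monosomes (mRNA with a single ribosome) were in fractions 4 to 7, light polysomes in 8 to 10 and heavy polysomes in 11 to 16. Each of the 13 fractions was sequenced as a 3′ end library, in 4 gradients per treatment. A gradient is named here by a tag in its column names, LUL15 to LUL18, called its pool below. Where columns match a single labelled sample, those of a pool all carry the same replicate number, which differs between pools. For LUL16 this rests on a lone library. No LUL18 column matches a single sample, and its replicate number follows only by elimination. The labels do not say whether the tag also marks a library pool, or whether gradients with the same replicate number share animals.

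The kinetochore is assembled in layers. The histone H3 variant CENP-A marks the centromere, a constitutive network of CENP proteins sits on it, and the Knl1, Mis12 and Ndc80 complexes reach from there to the microtubules. In dividing cells most of these genes are read late in the cell cycle, before and during mitosis, and many of their promoters carry a cell cycle genes homology region (CHR) and CCAAT boxes.

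Depth ran from 14724 to 4170688 counts in single libraries (median 811932) and from 6404957 to 21449781 counts in gradient sums. A level is given as CPM, counts rescaled to a common library total with TMM factors, and since the 3′ end method counts about 1 tag per transcript, levels were not divided by length. Heavy fractions held 37.6% to 68.2% of the counts in 11 of the gradients, but 30.4% in the LPS+ET gradient of pool LUL16, which stood apart. Cdkn1a, the damage-induced inhibitor of cyclin-dependent kinases, served as a check of the treatment: its range was 24.3 to 35.1 CPM without etoposide, 502 to 929 CPM with it and 392 to 856 CPM with the inhibitor as well. The labelled cell type was checked on 6 B cell markers, all in the table, whose summed level was 2148 to 2944 CPM in LPS. It was 1398 to 2082 CPM in LPS+ET and 1604 to 2526 CPM in LPS+ET+KU. All 6 were negative in LPS+ET against LPS (median log2 fold change -0.76) and 5 in LPS+ET+KU (median -0.56), so the B cell markers moved in the same direction as most members below. The 1 that fell was Cd22, by -2.12 (adjusted p = 0.0017, edgeR) and -1.82 (adjusted p = 0.0053). The 4 T cell markers in the table summed to at most 2.31 CPM in any gradient and the 2 erythroid markers to at most 0.402. The 5 myeloid markers summed to 27.6 to 51.4 CPM in LPS, and to 19.1 to 98.4 CPM and 22.6 to 72.0 CPM in LPS+ET and LPS+ET+KU, and none of the listed markers in the table was at 0 over all gradients. All 5 myeloid markers were positive in LPS+ET (median 0.81) with none called, and in LPS+ET+KU Cd14 rose (3.83, adjusted p = 2.5e-04). The part of these cell types in the member values was not tested.

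The members spanned a wide range of levels. Pmf1, a subunit of the Mis12 complex, was highest with a mean of 891 CPM, and Cenpb, which binds a repeated DNA motif of the centromere, was lowest with 0.0770 CPM. Cenpb had 12 counts in all and Cenpt, a histone-fold protein of the constitutive network, 13, and neither passed the filter on low counts. The other 37 members were tested on the summed fractions. The site with most counts lay within 100 bases of an annotated transcript end for 30 of the 39 genes. It fell in an untranslated exon for 30, in another exon for Oip5, and just past the annotated gene for 8. Sites over 100 bases from the nearest transcript end were those of Hjurp (637 bases), Cenpb (2318), Cenpt (1177), Cenpw (1084) and Nsl1 (1923). The others were those of Ska1 (297), Ska2 (756), Cenpf (716) and Sgol1 (1272). Cenpw, Ska2 and Cenpf are among the members that fell below. The site of Cenpb overlaps Spef1 on the same strand. Those of Cenpo, Cenpp, Zwilch, Ska2 and Ska3 lie opposite Adcy3, Ippk, Lctl, Gm11491 and Sap18, and since the use of strand in counting is not given in the sources used here, the values of these members are uncertain to that extent.

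After etoposide the kinetochore mRNAs moved mostly down relative to other ribosome-bound mRNAs. Levels are scaled to a common total, so falls and rises here are relative, and the study reports that etoposide lowered polysome assembly globally. These fractions by themselves do not separate a change of mRNA abundance from a change of ribosome binding. The study also sequenced total cellular mRNA. It reports that most genes whose ribosome association changed after etoposide changed in total abundance too. Those values were not used here. Against LPS, 5 of the 37 tested members (13.5%) fell in LPS+ET, where 4.81% of the 12755 genes tested did, and 1 (2.70%) rose, where 7.88% of all genes did. Those that fell were Cenpw, Ska2, Cenpf, Casc5 and Cenpa, and Dsn1 rose. The median log2 fold change of the 37 was -0.51, beside 0.03 over all genes tested, and 30 of them (81.1%) were negative, beside 48.4% of all genes. In 14 members all 4 LPS+ET gradients lay below all 4 LPS gradients (12.6% of all genes), and in 1, Dsn1, all lay above (14.8% of all genes). With the pool as a block, a pairing carried by the column names, 16 members fell (43.2%, beside 12.8% of all genes) and 1 rose (13.9% of all genes rose). The falls added were those of Oip5, Incenp, Cdca8, Cenpi, Nuf2, Ska1, Cenpm, Cenpl, Sgol2, Cenpe and Cenpc1. In a bulk sample, fewer cells of a type and less RNA per cell cannot be told apart.

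The promoters of the 6 members called in this comparison are printed here because these mRNAs moved together, or in the case of Dsn1 the other way, and because CHR and CCAAT elements are the known marks of genes of this class. Each run is from RefSeq on GRCm38.p6, 5′ to 3′ on the strand of the gene, from 250 bases before the annotated start to 50 after it. Capitals mark TTTGAA or TTCGAA (the CHR letters searched) and CCAAT, on either strand, so that ATTGG is CCAAT on the opposite strand. Cenpa lies at chr5:30666636-30666935 (plus strand), Cenpw at chr10:30200491-30200790 (minus), Cenpf at chr1:189688037-189688336 (minus), Casc5 at chr2:119046869-119047168 (plus), Ska2 at chr11:87109011-87109310 (plus) and Dsn1 at chr2:157007026-157007325 (minus).
Cenpa: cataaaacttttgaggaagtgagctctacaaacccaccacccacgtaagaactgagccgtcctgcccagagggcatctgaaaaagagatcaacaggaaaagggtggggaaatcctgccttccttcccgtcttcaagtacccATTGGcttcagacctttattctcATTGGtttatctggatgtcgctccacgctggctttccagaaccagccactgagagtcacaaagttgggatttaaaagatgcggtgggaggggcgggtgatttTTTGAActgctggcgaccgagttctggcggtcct
Cenpw: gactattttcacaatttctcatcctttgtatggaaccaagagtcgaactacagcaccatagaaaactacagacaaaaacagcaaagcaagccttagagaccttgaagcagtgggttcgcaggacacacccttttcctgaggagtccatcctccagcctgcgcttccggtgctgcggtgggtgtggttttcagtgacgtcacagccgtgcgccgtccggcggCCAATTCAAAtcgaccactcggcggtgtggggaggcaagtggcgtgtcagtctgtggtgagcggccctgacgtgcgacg
Cenpf: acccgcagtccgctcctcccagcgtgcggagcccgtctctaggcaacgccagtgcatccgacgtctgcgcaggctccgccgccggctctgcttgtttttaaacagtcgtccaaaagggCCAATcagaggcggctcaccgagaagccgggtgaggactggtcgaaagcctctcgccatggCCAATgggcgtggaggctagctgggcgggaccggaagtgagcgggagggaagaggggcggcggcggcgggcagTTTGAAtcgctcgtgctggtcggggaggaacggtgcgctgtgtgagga
Casc5: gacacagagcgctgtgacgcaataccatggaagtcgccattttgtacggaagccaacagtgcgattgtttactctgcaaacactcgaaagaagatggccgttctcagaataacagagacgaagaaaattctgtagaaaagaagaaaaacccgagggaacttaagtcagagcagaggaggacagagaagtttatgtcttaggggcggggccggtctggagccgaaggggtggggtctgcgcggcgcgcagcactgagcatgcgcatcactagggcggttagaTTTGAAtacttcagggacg
Ska2: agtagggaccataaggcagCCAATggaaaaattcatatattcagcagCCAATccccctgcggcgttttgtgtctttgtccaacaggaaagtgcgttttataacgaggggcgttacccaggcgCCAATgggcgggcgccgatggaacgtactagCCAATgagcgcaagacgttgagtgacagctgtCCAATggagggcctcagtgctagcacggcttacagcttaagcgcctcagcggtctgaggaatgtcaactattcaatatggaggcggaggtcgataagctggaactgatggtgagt
Dsn1: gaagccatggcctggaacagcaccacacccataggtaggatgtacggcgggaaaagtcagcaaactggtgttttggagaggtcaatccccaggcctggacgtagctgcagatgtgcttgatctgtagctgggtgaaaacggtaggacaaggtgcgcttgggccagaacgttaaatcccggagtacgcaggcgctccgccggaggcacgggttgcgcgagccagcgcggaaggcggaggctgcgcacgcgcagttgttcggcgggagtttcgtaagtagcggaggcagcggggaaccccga

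Cenpa, Cenpf and Casc5 carry TTTGAA just after the start site, and in Cenpw its opposite-strand form overlaps a CCAAT box by 1 base in the run CCAATTCAAA. Ska2 has 5 CCAAT boxes and no CHR letters in this window, and Dsn1 has neither. Members not called in LPS+ET carry these letters too, among them Hjurp, Ndc80, Pmf1, Zw10 and Ska3 with TTTGAA. Spc25 and Cenpn carry both TTTGAA and CCAAT and were positive there, while Nuf2 and Birc5 have neither and were negative. Whether the letters went with the response was not tested. Of the 39 members, 34 had a promoter entry, and Ska1, Nsl1, Zwilch, Spc24 and Incenp had none. TTTGAA or TTCGAA stood in a promoter of 16 of the 34 (47.1%), beside 21.7% of 27025 genes. TTTGAA alone stood in 14 (41.2%, beside 20.2%) and TTCGAA in 2 (5.88%, beside 1.80%). CCAAT stood in 22 (64.7%, beside 41.1%), and 12 members (35.3%) had both CHR letters and CCAAT, beside 8.61% of genes. Per promoter, of 32851, the shares were 19.2% for either CHR form, 37.4% for CCAAT and 7.52% for both. A match of letters is a description and not a bound site.

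**Figure D1:**
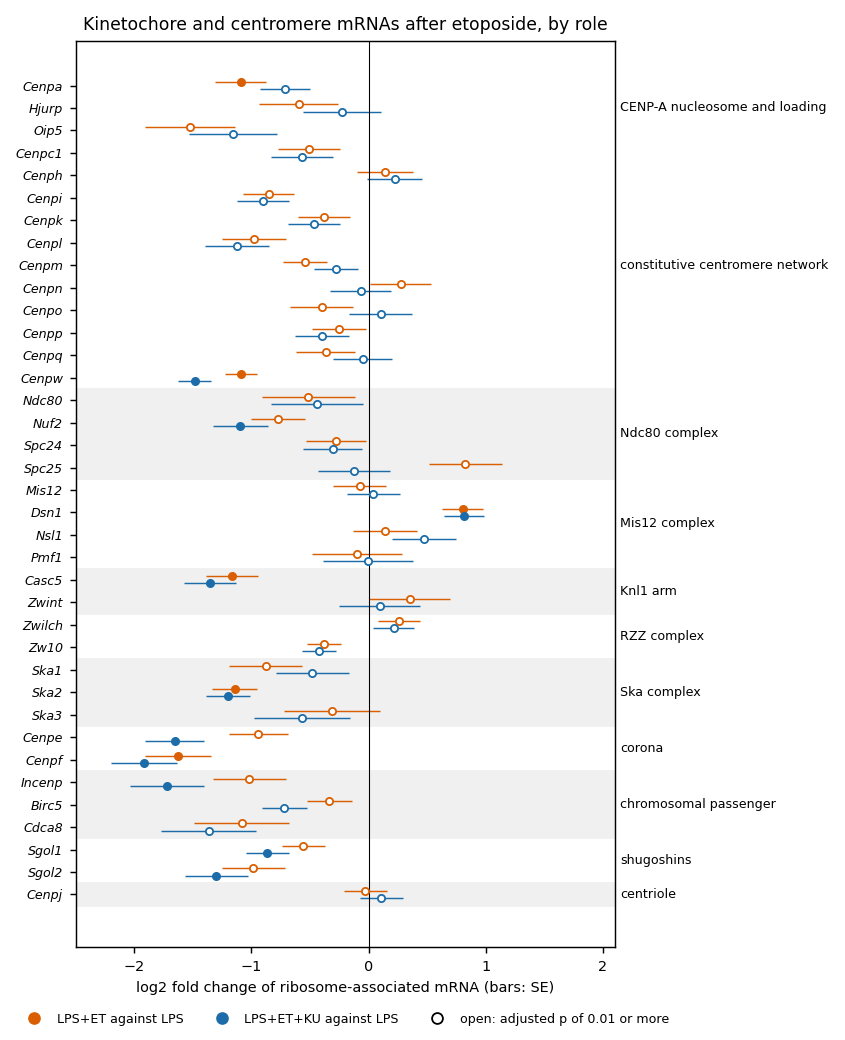
Log2 fold change of ribosome-associated mRNA (x axis, bars are SE) for the 37 tested members, grouped by role, in LPS+ET against LPS and LPS+ET+KU against LPS. Filled points passed an adjusted p of 0.01, and most points lie left of 0, with Dsn1 the filled pair on the right.

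The CENP-A group holds the histone variant and its loading factors. Cenpa (ENSMUSG00000029177, chromosome 5, 30666776 to 30674826, plus strand) had 372, 390, 502 and 438 CPM in the LPS gradients of pools LUL15 to LUL18, and 145, 240, 210 and 203 CPM in LPS+ET. The groups did not overlap, and the fall was 2.13-fold (log2 fold change -1.09, SE 0.22, adjusted p = 0.0025). The LPS+ET+KU gradients, with 183, 343, 259 and 254 CPM, all lay below LPS and overlapped LPS+ET. That difference from LPS was not called (-0.71, SE 0.21, adjusted p = 0.029; 0.0013 with the pool as a block). Hjurp, the chaperone that deposits CENP-A, differed by -0.60 (SE 0.33, adjusted p = 0.23) in LPS+ET. Oip5, a subunit of the Mis18 complex that licenses that deposition, had 24.8, 33.9, 14.7 and 42.5 CPM in LPS and 10.9, 6.42, 7.49 and 15.3 CPM in LPS+ET. Its LPS gradients were spread widely, the lowest of them below the highest of LPS+ET, and the difference of -1.53 missed the threshold (SE 0.38, adjusted p = 0.011). It passed with the pool as a block (-1.44, adjusted p = 1.3e-04).

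The constitutive centromere network sits on CENP-A through the cell cycle. Of its 11 tested members 1 fell, Cenpw, and 9 were negative, from -1.09 to 0.28. Cenpw encodes the small histone-fold partner of CENP-T (ENSMUSG00000075266, chromosome 10, 30196010 to 30200539, minus strand). It had 59.9, 54.4, 59.8 and 46.1 CPM in LPS, 26.4, 25.8, 25.4 and 25.8 in LPS+ET, and 20.7, 19.4, 20.6 and 17.9 in LPS+ET+KU. The 3 groups did not overlap, and the 4 LPS+ET gradients were nearly equal. It fell 2.13-fold in LPS+ET (-1.09, SE 0.14, adjusted p = 1.0e-04) and 2.80-fold in LPS+ET+KU (-1.48, SE 0.14, adjusted p = 2.1e-05). Cenpl and Cenpi, which take part in building the network on the CENP-A nucleosome, had differences of -0.98 (SE 0.27, adjusted p = 0.020) and -0.85 (SE 0.22, adjusted p = 0.013) in LPS+ET, and each passed with the pool as a block (adjusted p = 0.0054 and 0.0032). Cenpc1, which links the CENP-A nucleosome to the outer kinetochore, and Cenpm, a partner of CENP-I, differed by -0.51 (SE 0.27) and -0.55 (SE 0.19). They too passed with the block (adjusted p = 0.0064 and 0.0046). Cenph and Cenpn were the 2 members of the network above 0, at 0.14 (SE 0.24) and 0.28 (SE 0.26).

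The Ndc80 complex makes the end-on contact with the microtubule, and none of its 4 members was called in LPS+ET, where the range was -0.77 to 0.83. Nuf2, the partner of Ndc80 at the microtubule end, had 51.7, 58.6, 58.5 and 66.4 CPM in LPS, 27.4, 28.2, 44.1 and 37.9 in LPS+ET and 18.9, 38.9, 29.8 and 22.3 in LPS+ET+KU. All treated gradients lay below all LPS gradients. It fell 2.13-fold in LPS+ET+KU (-1.09, SE 0.23, adjusted p = 0.0049), and in LPS+ET the difference was -0.77 (SE 0.23, adjusted p = 0.028; 0.0039 with the pool as a block). The LPS+ET+KU call was lost without any 1 of the LPS gradients or without the LPS+ET+KU gradient of LUL15, LUL17 or LUL18 (adjusted p of at most 0.020). Ndc80 itself differed by -0.51 (SE 0.39) and Spc24 by -0.28 (SE 0.25), with adjusted p of 0.40 and 0.49. Spc25, which joins the complex to Mis12, had 85.7, 102, 54.6 and 68.4 CPM in LPS, 198, 67.8, 121 and 165 CPM in LPS+ET and 91.2, 59.4, 52.1 and 83.1 CPM in LPS+ET+KU. Of the LPS+ET gradients, 3 lay above every LPS gradient and the LUL16 gradient did not, and the difference of 0.83 was not called (SE 0.31, adjusted p = 0.073).

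In the Mis12 complex, the bridge between the inner and outer kinetochore, 1 of 4 members rose and none fell. Dsn1 (ENSMUSG00000027635, chromosome 2, 156995264 to 157007153, minus strand) had 9.42, 10.0, 7.36 and 8.95 CPM in LPS, 15.3, 15.5, 15.9 and 15.8 in LPS+ET and 13.0, 19.4, 16.9 and 13.5 in LPS+ET+KU. All treated gradients lay above all LPS gradients. It rose 1.74-fold in LPS+ET (0.80, SE 0.17, adjusted p = 0.0047) and 1.76-fold in LPS+ET+KU (0.81, SE 0.17, adjusted p = 0.0050). The call of Dsn1 in LPS+ET was lost in 9 of 15 alternatives (adjusted p of at most 0.085), among them those without any 1 of the LPS gradients or without the LPS+ET gradient of LUL15, LUL17 or LUL18 (at most 0.019). In LPS+ET+KU it was lost in 8 (at most 0.019), among them those without any 1 of the LPS gradients or the LPS+ET+KU gradient of LUL16 or LUL17. Mis12, Nsl1 and Pmf1 lay between -0.10 and 0.14 in LPS+ET.

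In the Knl1 arm, which recruits the spindle checkpoint, the scaffold fell and its partner was not called. Casc5 (ENSMUSG00000027326, chromosome 2, 119047118 to 119105500, plus strand), the gene of Knl1, had 30.6, 24, 40 and 37 CPM in LPS, 16.2, 12.7, 16.8 and 12.6 in LPS+ET and 10.1, 17.5, 13.2 and 10.5 in LPS+ET+KU. No treated gradient reached the lowest LPS gradient. It fell 2.25-fold in LPS+ET (-1.17, SE 0.22, adjusted p = 0.0020) and 2.55-fold in LPS+ET+KU (-1.35, SE 0.22, adjusted p = 0.0010). Where every fraction was given equal weight, its adjusted p was 0.051 in LPS+ET and 0.087 with the inhibitor. Zwint, which binds Knl1, differed by 0.35 (SE 0.34, adjusted p = 0.53). The RZZ members Zwilch and Zw10, which bring dynein to the kinetochore, differed by 0.26 (SE 0.18) and -0.38 (SE 0.15) in LPS+ET, and neither was called.

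The Ska complex keeps the kinetochore on a shortening microtubule, and its smallest subunit fell. Ska2 (ENSMUSG00000020492, chromosome 11, 87109233 to 87124634, plus strand) had 43.8, 39.5, 38.7 and 32.1 CPM in LPS, 20.3, 14.9, 16.5 and 18 in LPS+ET and 18.2, 21.4, 12.3 and 15.1 in LPS+ET+KU. The treated gradients all lay below the LPS gradients. It fell 2.21-fold in LPS+ET (-1.14, SE 0.19, adjusted p = 8.1e-04) and 2.30-fold in LPS+ET+KU (-1.20, SE 0.19, adjusted p = 8.6e-04). Ska1 and Ska3 differed by -0.88 (SE 0.31, adjusted p = 0.060) and -0.31 (SE 0.41, adjusted p = 0.65) in LPS+ET, and Ska1 passed with the pool as a block (adjusted p = 0.0040).

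The corona proteins Cenpe and Cenpf gather at kinetochores that have no microtubule. Cenpf (ENSMUSG00000026605, chromosome 1, 189640598 to 189688085, minus strand), a very long protein that binds dynein regulators, had 27.3, 24.9, 35.8 and 38 CPM in LPS, 16.0, 7.98, 6.65 and 10.0 in LPS+ET and 8.45, 11.3, 6.22 and 7.23 in LPS+ET+KU. No treated gradient overlapped LPS. It fell 3.09-fold in LPS+ET (-1.63, SE 0.28, adjusted p = 0.0010) and 3.78-fold in LPS+ET+KU (-1.92, SE 0.28, adjusted p = 5.0e-04). Cenpe, a kinesin that carries chromosomes to the spindle equator, had 44.5, 33.8, 56.5 and 41.7 CPM in LPS, 29.7, 16.9, 23.2 and 21.8 in LPS+ET and 12.8, 20.3, 9.40 and 13.2 in LPS+ET+KU. Both treated groups lay below LPS. It fell 3.15-fold in LPS+ET+KU (-1.66, SE 0.25, adjusted p = 6.4e-04; 0.030 with equal weight per fraction), and in LPS+ET the difference was -0.94 (SE 0.25, adjusted p = 0.015; 0.0061 with the pool as a block).

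The chromosomal passenger proteins carry Aurora B to the inner centromere and the shugoshins guard centromeric cohesion, and in both groups the calls without the block came in LPS+ET+KU, while with the pool as a block Incenp, Cdca8 and Sgol2 were called in LPS+ET too. Incenp, the scaffold of Aurora B, had 57.8, 60.0, 51.6 and 47.8 CPM in LPS, 43.1, 25, 18.8 and 20.2 in LPS+ET and 17.3, 26.5, 10.4 and 11.5 in LPS+ET+KU. It fell 3.29-fold in LPS+ET+KU (-1.72, SE 0.32, adjusted p = 0.0022), with no overlap between those groups. In LPS+ET the difference was -1.02 (SE 0.31, adjusted p = 0.031; 9.9e-04 with the block), with the LUL15 gradient nearest to LPS. Cdca8, which encodes borealin, and Birc5, which encodes survivin, differed in LPS+ET+KU by -1.36 (SE 0.41, adjusted p = 0.028; 2.3e-04 with the block) and -0.72 (SE 0.19, adjusted p = 0.017; 0.0030 with the block). In LPS+ET the difference of Cdca8 was -1.08 (SE 0.40, adjusted p = 0.071; 0.0028 with the block). Sgol1 had 62.4, 61.5, 64.5 and 57.8 CPM in LPS and 29.4, 46.2, 32.8 and 26.7 in LPS+ET+KU, and Sgol2 had 19.6, 19.5, 27.1 and 26.1 CPM in LPS and 6.04, 15.3, 7.61 and 8.15 in LPS+ET+KU. Neither shugoshin overlapped between these groups. Sgol1 fell 1.82-fold (-0.86, SE 0.18, adjusted p = 0.0048) and Sgol2 2.46-fold (-1.30, SE 0.27, adjusted p = 0.0042). In LPS+ET they differed by -0.56 (SE 0.18) and -0.98 (SE 0.27), with adjusted p of 0.042 and 0.018, and that of Sgol2 was 0.0061 with the block. The LPS+ET+KU call of Sgol1 was lost without any 1 of the LPS gradients, and that of Sgol2 without the LPS gradient of LUL17 or LUL18. Both were lost without the LPS+ET+KU gradient of LUL15, LUL17 or LUL18 (adjusted p of at most 0.019 for Sgol1 and 0.017 for Sgol2), and with equal weight per fraction (0.042 and 0.13). Cenpj, a centriole protein that shares only the CENP name, stood at -0.03 (SE 0.18) in LPS+ET and 0.11 (SE 0.18) in LPS+ET+KU.

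**Figure D2:**
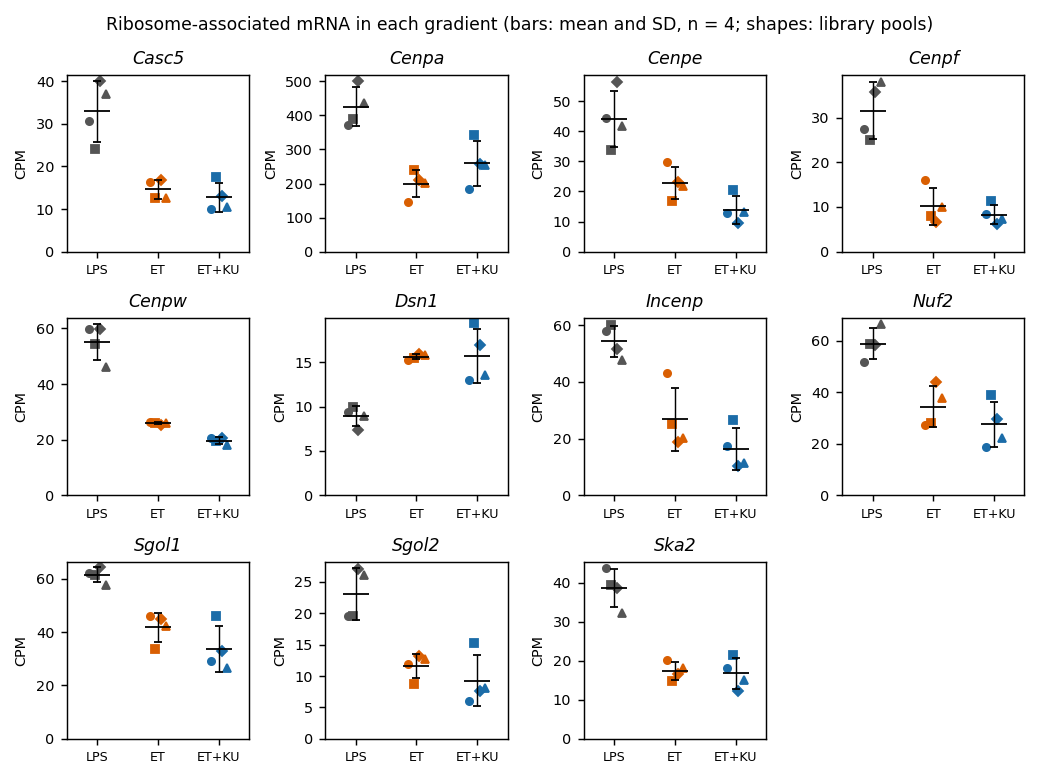
Ribosome-associated mRNA (y axis, CPM) of the 11 members called in LPS+ET or LPS+ET+KU against LPS, by treatment. Each point is a gradient with a shape per pool tag, bars are mean and SD of 4 gradients, and Dsn1 alone sits higher after treatment.

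With the ATM inhibitor added, the same comparison against LPS called 10 members. Here 9 of 37 fell (24.3%, beside 4.42% of all genes tested) and Dsn1 rose (6.25% of all genes rose). The median was -0.47, beside 0.09 over all genes, and 29 members (78.4%) were negative, beside 44.4% of all genes. All 4 LPS+ET+KU gradients lay below all LPS gradients in 14 members (12.0% of all genes) and above in 1 (14.4% of all genes). With the pool as a block 17 fell (45.9%, beside 13.3% of all genes), and those added were Cdca8, Oip5, Cenpa, Cenpi, Cenpl, Birc5, Cenpc1 and Ska3. Both etoposide groups were set against the same 4 LPS gradients, so their values are not independent. Leaving out the LPS gradient of LUL17 or LUL18, or the LPS+ET+KU gradient of LUL17, left 6 calls each, all of them falls. Monosomes held a larger share of the counts in LPS+ET+KU than in LPS, and sums over fractions carry that mix. With equal weight per fraction the calls of Cenpe, Casc5, Sgol1 and Sgol2 were lost (adjusted p of 0.030 to 0.13, limma). Those of Cenpw, Cenpf, Ska2, Incenp, Nuf2 and Dsn1 were kept. The part of the mix in the summed values was not tested further.

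The direct comparison of LPS+ET+KU with LPS+ET asks what the inhibitor changed. No member was called by edgeR, where 0.455% of all genes were. Of the members, 4 had an unadjusted p under 0.05 (5 in DESeq2 and 9 with the pool as a block, with 0 called in either, beside 6.36% of all genes with the block), and the median was -0.06, beside 0.04 over all genes. The smallest adjusted p was 0.13, for Spc25 (-0.95, SE 0.31). Next were Cenpe (-0.72, SE 0.25, adjusted p = 0.17) and Cenpw (-0.40, SE 0.14, adjusted p = 0.17). Cenpw was also the member whose 4 LPS+ET+KU gradients all lay below its LPS+ET gradients, a pattern seen in 4.74% of all genes. The calls that appear, without the block, against LPS with the inhibitor and not in its absence, such as those of Incenp, Cenpe and the shugoshins, are therefore not shown to differ between the etoposide groups.

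Genes next to the list by function were examined in the same way. Among further kinetochore genes Knstrn, a spindle-binding protein, fell in LPS+ET (log2 fold change -0.93, adjusted p = 7.2e-04). Of 6 spindle checkpoint genes 1 fell (beside 4.81% of all genes), Bub1b, an inhibitor of anaphase onset (-1.03, adjusted p = 0.0033), and all 6 were negative (median -0.58). Of 31 DNA replication genes none was called by edgeR in LPS+ET, and their median was 0.03. In LPS+ET+KU against LPS, 2 of the 6 and 4 of the 31 fell, beside 4.42% of all genes. They included Bub3, the partner of Bub1b (-0.96, adjusted p = 0.0058), and Prim2, a primase subunit (-0.84, adjusted p = 0.0018). Aurkb, the kinase that Incenp carries, also fell there (-0.92, adjusted p = 0.0053).

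The fraction classes were then compared between treatments. In monosomes 35 members were tested, and 4 fell in LPS+ET (11.4%, beside 3.08% of all genes). With the pool as a block 13 did (37.1%, beside 10.7% of all genes). The 4 were Cenpa (log2 fold change -1.83, SE 0.22, adjusted p = 8.7e-05), Ska2 (-1.56, SE 0.23, adjusted p = 3.6e-04), Oip5 (-1.53, SE 0.36, adjusted p = 0.0083) and Cenpw (-1.10, SE 0.19, adjusted p = 0.0010). The call of Oip5 was lost without any 1 of the 8 gradients (adjusted p of at most 0.028). Where each fraction had equal weight, 1 member was called. With the inhibitor 6 fell against LPS (17.1%, beside 2.26% of all genes), and 12 did with the block (34.3%, beside 10.1% of all genes). The 6 were Cenpw (-1.57), Ska2 (-1.57), Nuf2 (-1.46), Cenpa (-1.23), Sgol1 (-1.04) and Birc5 (-0.96), with adjusted p of at most 0.0033, and 3 were called without the LPS+ET+KU gradient of LUL18. Nuf2 was also lost without the LPS gradient of LUL17 or LUL18 (adjusted p of at most 0.013). LPS+ET+KU against LPS+ET called 0 members in edgeR and in DESeq2 (0.213% of all genes in edgeR), with 4 at an unadjusted p under 0.05 in each. With the block 1 was called, beside 5.62% of all genes, Cenpa (0.59, adjusted p = 0.0021).

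In light polysomes the largest differences from LPS were those of Oip5 in LPS+ET and Cenpw in LPS+ET+KU. In LPS+ET 2 of 37 fell (5.41%, beside 4.07% of all genes), and 11 did with the block (29.7%, beside 12.1% of all genes). The 2 were Oip5 (-1.63, SE 0.37, adjusted p = 0.0059) and Ska2 (-1.0, SE 0.19, adjusted p = 0.0020). Dsn1 rose (1.18, SE 0.25, adjusted p = 0.0047), where 6.56% of all genes rose. Without the LPS gradient of LUL18 or the LPS+ET gradient of LUL16, 1 member was called. Oip5 was lost in 5 of the 8 fits that left out 1 gradient (adjusted p of at most 0.023) and Dsn1 in 6 (at most 0.018). With the inhibitor 3 fell against LPS (8.11%, beside 3.24% of all genes), and 11 did with the block (29.7%, beside 12.2% of all genes). The 3 were Cenpw (-1.74, SE 0.28), Cenpl (-1.26, SE 0.29) and Ska2 (-1.13, SE 0.19). Dsn1 rose (1.28, SE 0.25), where 3.89% of all genes rose. Cenpl was lost in 7 of the 8 fits that left out 1 gradient (adjusted p of at most 0.033). Leaving out the LPS gradient of LUL16, LUL17 or LUL18 or the LPS+ET+KU gradient of LUL18 left 2 calls, and leaving out the LPS+ET+KU gradient of LUL16 gave 7. Between the etoposide groups edgeR and DESeq2 called 0 (0.292% of all genes in edgeR), with 3 members at an unadjusted p under 0.05 in each. The block called 1, beside 5.35% of all genes, Spc25 (-0.87, adjusted p = 0.0074).

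In heavy polysomes Cenpf had the largest difference from LPS in both etoposide groups. In LPS+ET 3 of 37 fell (8.11%, beside 3.55% of all genes), and 7 did with the block (18.9%, beside 10.1% of all genes). The 3 were Cenpf (-1.83, SE 0.35, adjusted p = 0.0020), Casc5 (-1.34, SE 0.29, adjusted p = 0.0049) and Ska2 (-1.03, SE 0.22, adjusted p = 0.0050). Without the LPS gradient of LUL17 or LUL18 or the LPS+ET gradient of LUL17 1 was called, and without the LPS+ET gradient of LUL18 none was. Ska2 was lost in 6 of the 8 fits that left out 1 gradient (adjusted p of at most 0.018) and Casc5 in 4 (at most 0.021). Neither was called with equal weight per fraction. With the inhibitor 6 fell against LPS (16.2%, beside 3.01% of all genes), and 12 did with the block (32.4%, beside 10.3% of all genes). The 6 were Cenpf (-1.91), Incenp (-1.76), Cenpe (-1.72), Casc5 (-1.45), Cenpw (-1.15) and Ska2 (-1.15), with adjusted p of at most 0.0069. The count of 6 was 3 without the LPS gradient of LUL15 or LUL17 or the LPS+ET+KU gradient of LUL17, 1 without the LPS+ET+KU gradient of LUL18, and 12 without that of LUL16. Incenp was lost in 7 of the 8 fits that left out 1 gradient (adjusted p of at most 0.026). Casc5 was lost in 5 of these (at most 0.016), Ska2 in 4 (at most 0.014), Cenpw in 2 and Cenpe in 1. With equal weight per fraction Cenpe, Casc5, Cenpw and Ska2 were not called. Between the etoposide groups edgeR, DESeq2 and the block called 0 (0.572% of all genes in edgeR and 3.27% with the block), with 3, 5 and 8 members at an unadjusted p under 0.05.

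The members lay at different positions along the gradient. In LPS 21 of 37 members differed between heavy polysomes and monosomes, 13 higher in heavy (35.1%, beside 28.5% of 11034 genes) and 8 lower (21.6%, beside 22.9%). Lowest in heavy polysomes relative to monosomes were Cenpw (log2 difference -2.94, SE 0.17), Cenpa (-2.16, SE 0.14), Cenpm (-1.42, SE 0.15) and Ska2 (-1.36, SE 0.15). At the other end were Cenpf (2.54, SE 0.26), Cenpe (1.57, SE 0.23), Sgol2 (1.44, SE 0.25), Cenpq (1.38, SE 0.27), Zwint (1.36, SE 0.19) and Cdca8 (1.35, SE 0.19). All of these passed at an adjusted p of at most 3.4e-05. With equal weight per fraction Ska2 (adjusted p = 0.091) and Cenpq (adjusted p = 0.012) were not called, nor was Cdca8 without a term for the gradient (adjusted p = 0.013).

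After etoposide Cenpw was again the member lowest in heavy polysomes relative to monosomes. In LPS+ET 10 members were higher in heavy polysomes (26.9% of all genes) and 6 lower (22.7% of all genes), led by Cenpw (-2.48, SE 0.20), Zwint (1.74, SE 0.20), Cenpf (1.53, SE 0.36), Cenpm (-1.37, SE 0.16) and Cenpe (1.35, SE 0.29). Without the LPS+ET gradient of LUL15, 10 of the 37 were called, and the calls of Cenpf and Cenpe were lost (adjusted p = 0.015 and 0.013). With the inhibitor 10 were higher (29% of all genes) and 7 lower (25.4% of all genes), led by Cenpw (-2.54, SE 0.19), Cenpf (2.26, SE 0.30), Zwint (1.79, SE 0.18) and Sgol2 (1.53, SE 0.27). With fractions scaled to the same total, heavy polysomes held 12.8% ± 1.1 (SD, n = 4) of the Cenpw mRNA in LPS, 20.2% ± 10 in LPS+ET and 20.0% ± 6.2 with the inhibitor. For Cenpf these shares were 83.6% ± 5.9, 75.1% ± 7.4 and 79.4% ± 3.5. The median over 8000 genes was 55.3% ± 0.92, 54.1% ± 2.4 and 54.6% ± 2.3 in the same order, so that Cenpw lay far to the light side and Cenpf far to the heavy side in every group.

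**Figure D3:**
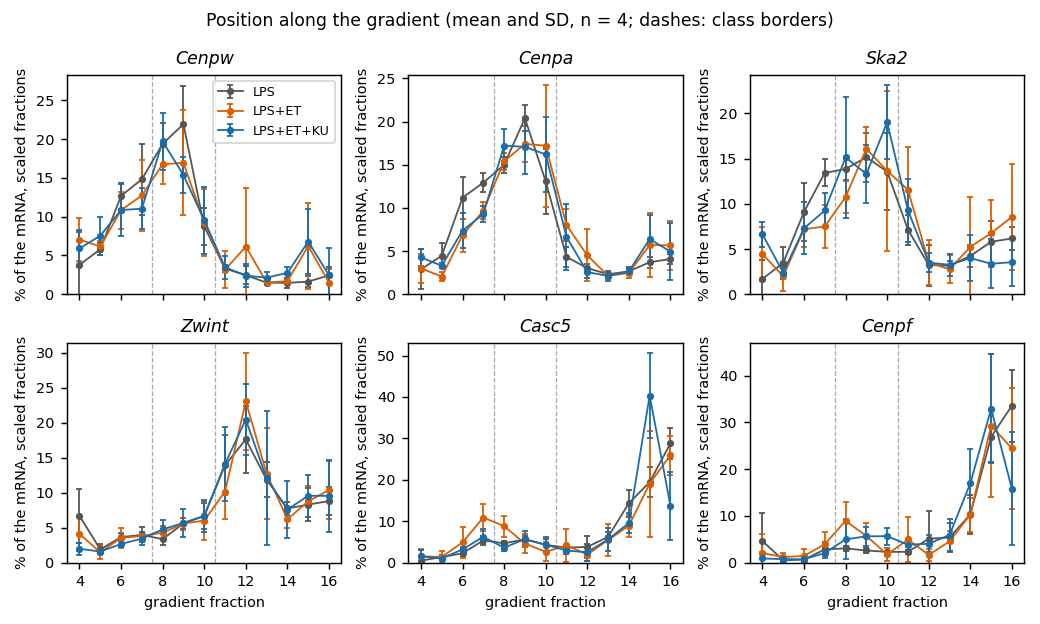
Share of each mRNA found in fractions 4 to 16 (y axis, percent after scaling each fraction to the same total), by treatment, for 6 members. Points are means and bars SD of 4 gradients, dashes mark the class borders, and Cenpw peaked in fraction 9 in LPS, Zwint in fraction 12 and Cenpf in fraction 16.

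Coding length was set beside these positions. The longest annotated coding sequence is 258 bases for Cenpw, 360 for Ska2, 402 for Cenpa and 540 for Cenpm, and 6357 for Casc5, 7413 for Cenpe and 8991 for Cenpf. Members higher in heavy polysomes in LPS had a median of 978 coding bases (618 to 8991, n = 13), and those lower had 691.5 (258 to 2001, n = 8). The members not called had a median of 1039.5 (420 to 4032, n = 16), above both, and in LPS+ET the medians were 892.5 for higher, 471 for lower and 1233 for not called. Across the 37 members log2 coding length and the heavy-to-monosome difference correlated at r = 0.60 (rho = 0.45) in LPS, 0.45 (0.30) in LPS+ET and 0.49 (0.33) with the inhibitor. Over 10171 genes with a coding length r was 0.27, 0.22 and 0.23. Split at 1000 coding bases, the 19 shorter and 18 longer members had median differences of 0.02 and 0.18 in LPS and 0.26 and 0.30 in LPS+ET. These are descriptions across genes that share the same libraries, and genes are not independent replicates. Length did not order all members: Zwint, with 756 coding bases, lay well into the heavy side, and Hjurp, with 2001, lay on the light side (-0.82 in LPS).

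**Figure D4:**
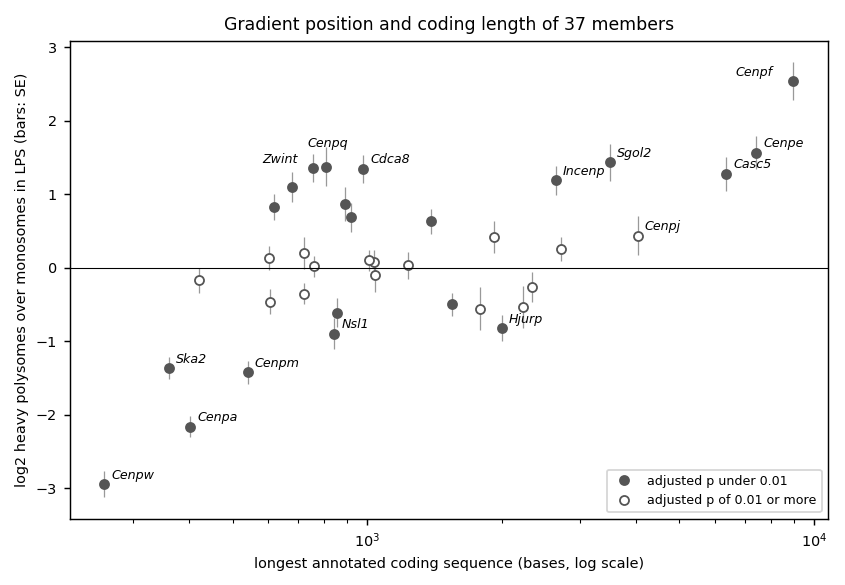
Log2 difference between heavy polysomes and monosomes in LPS (y axis, bars are SE) against longest annotated coding sequence in bases (x axis, log scale) for 37 members. Filled points passed an adjusted p of 0.01, with Cenpw at the lower left (258 bases, -2.94) and Cenpf at the upper right (8991 bases, 2.54).

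A few members changed position with treatment. In LPS+ET against LPS the heavy-to-monosome difference rose in 3 of 37 (8.11%, beside 1.63% of all genes), Nsl1 (1.52, SE 0.34, adjusted p = 0.0026), Cenph (1.01, SE 0.22, adjusted p = 0.0017) and Cenpa (1.00, SE 0.19, adjusted p = 4.9e-04). Cenpa had 394, 510, 576 and 603 CPM in the LPS monosomes and 114, 129, 169 and 175 in those of LPS+ET. In heavy polysomes it had 158, 150, 222 and 203 CPM in LPS and 69.7, 90.1, 121 and 112 in LPS+ET, so that both classes were lower after etoposide and the monosomes by more. Cenph, a partner of CENP-K in the network, had 22.8, 31.9, 31.1 and 35 CPM in LPS monosomes and 16.5, 13.8, 20.5 and 22.1 in LPS+ET. Its heavy polysomes had 34.7, 37.5, 32.8 and 41.6 CPM in LPS and 52.4, 22.4, 41.5 and 58.8 in LPS+ET. The 3 gradients other than LUL16 were thus higher in heavy polysomes, while LUL16 was lower in both classes. Nsl1, a Mis12 complex subunit, had 7.12, 10.6, 13.0 and 5.91 CPM in LPS monosomes against 4.12, 4.09, 4.92 and 4.28 in LPS+ET, and 6.65, 7.87, 7.53 and 7.92 CPM in heavy polysomes against 9.51, 7.64, 11.8 and 10.1. With no term for the gradient, or with equal weight per fraction, none of the 3 was called. Leaving out 1 gradient ended the call of Nsl1 (LPS of LUL16 or LUL17, LPS+ET of LUL17; adjusted p of at most 0.017) and of Cenph (LPS+ET of LUL15; 0.013).

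With the inhibitor the same difference rose against LPS in 2 members (5.41%, beside 1.19% of all genes), Nsl1 (1.23, SE 0.28, adjusted p = 0.0030) and Cenpa (0.77, SE 0.19, adjusted p = 0.0050). Cdca8 came next (-0.98, SE 0.27, adjusted p = 0.015) and was called with the pool by class as a block (adjusted p = 0.0031). No term for the gradient, equal weight per fraction or leaving out border fractions gave 0 calls each. The count was 0 without the LPS gradient of LUL16 or LUL17 and 1 without the LPS gradient of LUL18 or the LPS+ET+KU gradient of LUL15, LUL17 or LUL18. Between LPS+ET+KU and LPS+ET edgeR called 0 (0.181% of all genes), with 3 members at an unadjusted p under 0.05. The smallest adjusted p was 0.14, for Ska3 (-0.85, SE 0.28).

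**Figure D5:**
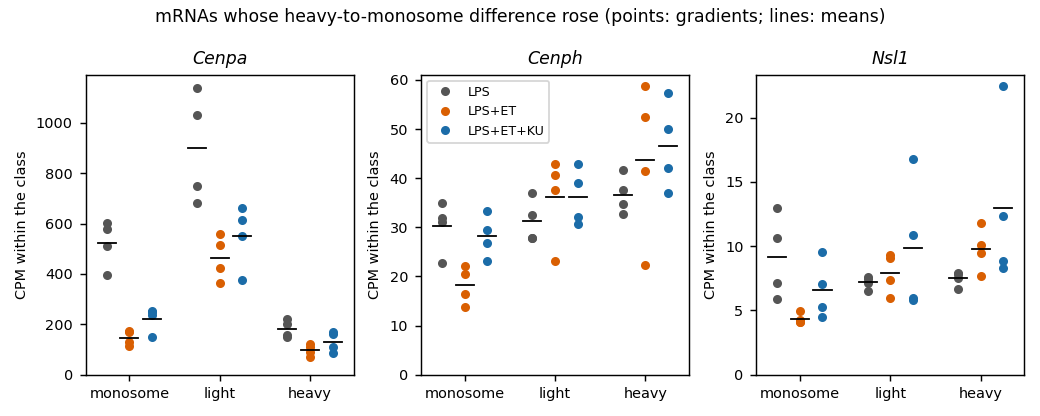
Level within each fraction class (y axis, CPM) of Cenpa, Cenph and Nsl1 by treatment. Points are gradients and lines are means of 4, and in monosomes the LPS+ET gradients of Cenpa and Nsl1 all lie below those of LPS.

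The model of the study, with fraction, treatment and their interaction against fraction alone in the single-fraction libraries of both treatments, treats the fractions of a gradient as independent. In LPS+ET against LPS it called 17 of 37 members, beside 31% of 10360 genes, led by Cenpa (adjusted p = 1.8e-14), Ska2 (4.2e-09), Cenpf (8.3e-09), Cenpw (1.0e-08) and Oip5 (1.3e-08). The interaction by itself, which asks only for a change of shape along the gradient, called 0, beside 1.37% of all genes. With the pool as a block 23 were called, beside 41.7% of all genes. Between the etoposide groups the model called 2 members, Spc25 (adjusted p = 1.4e-05) and Cenpk (adjusted p = 0.0099), beside 8.01% of 10472 genes. With the pool as a block 7 of 37 were called, beside 18.3% of all genes, and with the interaction by itself 0, beside 1.05%. That count of 2 was 1 without the LPS+ET gradient of LUL15, LUL17 or LUL18 or the LPS+ET+KU gradient of LUL15, LUL16 or LUL18. The summed level of Spc25 was 138 CPM ± 56 (SD, n = 4) in LPS+ET, 71.4 CPM ± 19 in LPS+ET+KU and 77.8 CPM ± 21 in LPS.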

How the data were processed

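The authors collected polyadenylated RNA from gradient fractions, made 3′ end libraries from equal RNA concentrations and removed PCR duplicates by random bases. Per the submitters' processing notes, TopHat2 2.0.12, HTSeq and DESeq2 1.6.3 were used and the build was GRCm38. The table they deposited holds counts per gene and library without normalization, and since RNA input was equalised, fraction totals do not measure how much mRNA a fraction held. Its 19600 genes and 157 libraries held whole numbers only. A lone fraction 17 library of an LPS gradient (777 counts) was not used.

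Of the 157 columns, 79 matched a single labelled sample and 78 (pools LUL16 and LUL18) only a treatment and fraction. The methods speak of 4 biological replicates, and the pool tags go with the replicate numbers of the labels, for LUL18 by elimination. Where nothing further ties gradients to animals, p-values measure only the spread between these gradients. Pool tags in the column names were taken to pair gradients: deviations from treatment means correlated at 0.305 to 0.799 (median 0.585) within a pool, all 12 above 0.1, and at -0.628 to 0.284 (median -0.190) between pools, 5 of 36 above 0.1.

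Counts were summed per gradient, or per class of fractions, and tested on all 12 gradients with edgeR 4.0.16 (TMM, default expression filter, quasi-likelihood F-test, treatment as the term) under R 4.3.3. Genes were called at a two-sided Benjamini-Hochberg adjusted p under 0.01 over all genes tested. Heavy polysomes and monosomes were compared on 36 class sums with a term per gradient. SE is the log2 fold change divided by the square root of F. Alternatives were DESeq2 1.42.0, other size factors, no filter, a pool block, a looser threshold, limma 3.58.1 on log2 CPM (pseudocount 0.5) with equal weight per fraction, classes without their border fractions, and each gradient left out. The fit was tested on simulated data. Coding lengths came from GENCODE release M21 and promoters from RefSeq. The members and lists were chosen with earlier results of these data known. Named members were those called in a summed comparison, up to 10 by size called in each other comparison or the 3 with the smallest p, and the highest and lowest by level. The counts over the list of further kinetochore and centromere genes are not reported here.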

Additional observations from a re-analysis of the deposited data

Results flagged for a closer look

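Members whose response to treatment differed between fraction classes were picked out by a test of that difference, the interaction of class and treatment in edgeR (Benjamini-Hochberg adjusted p under 0.01). In LPS+ET against LPS, the log2 fold change in heavy polysomes exceeded that in monosomes by 1.00 for Cenpa, 1.01 for Cenph and 1.52 for Nsl1. In LPS+ET+KU against LPS it did so by 0.77 for Cenpa and 1.23 for Nsl1. The LPS gradients enter both comparisons. Low counts stand behind Nsl1, whose monosome level was 4.09 to 13.0 CPM in LPS and LPS+ET.

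In the summed fractions, 36 groups of 4 gradients (12 members in 3 treatments) were examined for a lone gradient far from the other 3, and 0 were found, where chance alone gives about 1 in 20.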

How the results depend on the processing

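No value of a named member changed sign with any alternative where it was called. With the pool as a block, the number of members called went from 6 to 17 (LPS+ET) and from 10 to 18 (LPS+ET+KU) against LPS in summed fractions, from 4 to 13 and 6 to 12 in monosomes, from 3 to 12 and 4 to 12 in light and from 3 to 8 and 6 to 13 in heavy polysomes. Between the etoposide groups the block gave 1 in monosomes and 1 in light polysomes instead of 0, and 7 profiles instead of 2. It moved no other count by over 1.5 times and ended no call of a named member. Without the gradient term, heavy polysomes differed from monosomes for 12 members in LPS and 10 in LPS+ET, and the change of that difference was called for 0 in both contrasts against LPS. An adjusted p under 0.05 gave 14 and 16 (summed), 9 (monosomes, LPS+ET), 8 and 11 (light), and 8 and 12 (heavy). DESeq2 gave 12 in LPS+ET (summed), 6 and 7 (light) and 7 in LPS+ET (heavy). Equal weight per fraction gave 1 in LPS+ET monosomes, 1 and 2 in heavy polysomes, and 0 for both changes of position. Leaving out border fractions gave 1 in LPS+ET light polysomes, and 1 and 0 for the changes of position. The interaction by itself gave 0 profiles in both contrasts.

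Leaving out 1 gradient at a time gave 6 to 14 calls in LPS+ET+KU against LPS (summed), 3 to 7 there in monosomes, 1 to 3 (LPS+ET) and 2 to 7 (LPS+ET+KU) in light, and 0 to 4 and 1 to 12 in heavy polysomes. It gave 10 to 15 for heavy polysomes against monosomes in LPS+ET, 2 to 3 and 0 to 2 for the change of position, and 1 to 2 profiles between the etoposide groups. The counts in LPS+ET stayed at 5 to 6 (summed) and 3 to 4 (monosomes). Fewer samples or genes enter some of these fits, and otherwise the cause was not tested. Low counts limit Cenpb and Cenpt, which could not be tested, and the low members Nsl1, Cenpj, Cenpi, Dsn1 and Cenpq. The counted sites of Cenpb and Cenpt also lay over 100 bases from an annotated transcript end, and the cause of their low counts was not tested.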
